A study of Homo sapiens with 4 samples.

Results

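The genes described here are those of glycolysis and of the response to low oxygen. The list holds 37 genes, of which 24 belong to glycolysis and 13 to the hypoxia response. Each member was read from a probe set annotated to its symbol alone; where several were, the brightest on average over the 4 arrays was taken. This found 34 of the 37 genes, among 19775 genes with such a probe set in all: 22 glycolysis members and 12 hypoxia members. The lactate transporter genes SLC16A1 and SLC16A3 and the carbonic anhydrase gene CA9 had no such probe set and were not analysed here. Of the 34 genes, 32 reached a mean intensity of 113.7, which is the median of all probe sets, and are called measured. ENO2 and EGLN3 lay below it.

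MCF10A is a non-tumorigenic line of human mammary epithelial cells. The 4 cultures carried YAP-W1W2, YAP-S94A, YAP-WT (the wild-type protein) or the empty pQCXIH retroviral vector, and each gave 1 array. YAP is a transcriptional coactivator restrained by the Hippo pathway; S94A impairs its binding to TEAD transcription factors, and W1W2 alters both WW domains. All 4 cultures were infected with retrovirus and fed DMEM/F12 supplemented with insulin, hydrocortisone, cholera toxin, EGF, horse serum and antibiotics, and the labels name no change of oxygen or glucose. Whether each culture was a clone or a pool of infected cells is not given in the sources used here.

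Glycolysis turns glucose into pyruvate in the cytosol. Glucose transporters and hexokinase bring sugar in, phosphofructokinase sets the pace, the later enzymes recover ATP, and lactate dehydrogenase with lactate transporters disposes of pyruvate. The hypoxia response runs through the hypoxia-inducible factors (HIF), whose alpha subunits are hydroxylated by EGLN enzymes when oxygen is present and then degraded. Stabilised HIF induces many glycolytic genes together with genes of vessel growth, pH control, mitophagy and collagen hydroxylation. Much of HIF control acts on the protein, which these arrays do not measure.

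Every difference below is between 2 arrays, since each group had 1, and none carries a test or an error. Intensities at or below 72.9 were set to that floor before log2 was taken, a fold against the floor is written as at least that fold, and a gene is counted as different from 2-fold upwards. The median measured gene lay above vector by 0.10 (log2) in YAP-W1W2, 0.14 in YAP-S94A and 0.14 in YAP-WT. The bacterial hybridization control bioB differed from vector by log2 values of -1.28, -0.83 and -0.47 in the same order, and the control CreX by -0.51, -0.20 and 0.02; the part of this in any result was not tested. The brightest YAP1 probe set read 4657.0 in YAP-W1W2, 4208.4 in YAP-S94A and 3461.5 in YAP-WT, against 4085.5 in vector. A nearly as bright one read 3953.5, 4284.6 and 3908.4, against 3567.7 in vector, so the direction in YAP-WT depends on the probe set, and whether either lies within the constructs is not known. All 7 mammary epithelial markers with a probe set were above the floor on every array. Of the markers of other cells, 1 to 2 of 5 endothelial, 1 to 3 of 4 immune and 3 to 4 of 5 fibroblast genes passed it, depending on the array. The endothelial genes CDH5, TEK and VWF were below it on every array, and the leukocyte gene PTPRC passed it only in YAP-WT, at 74.6. PECAM1 (472.6 to 680.9) and CD79A (122.7 to 315.6) were above it on every array, and KDR, CD14 and CD3E on some. In bulk RNA, fewer cells with a transcript and less of it per cell cannot be told apart.

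The share of members past 2-fold lay near or below that of all measured genes in each comparison, with no test of the difference. Between YAP-W1W2 and vector 3 of the 32 measured members passed 2-fold (9.38%), against 19.8% of the 12759 measured genes; 2 members were higher (all genes 11.4%) and 1 lower (8.40%). Between YAP-S94A and vector 3 members passed (9.38%), against 16.8% of measured genes, with 1 higher (all genes 10.3%) and 2 lower (6.53%). Between YAP-WT and vector 5 passed (15.6%), against 14.0%, with 3 higher (all genes 9.10%) and 2 lower (4.95%). These comparisons share the vector array.

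Among the YAP cultures the picture was similar. Between YAP-S94A and YAP-WT 4 members passed (12.5%), against 11.3% of measured genes, with 2 higher (all genes 5.06%) and 2 lower (6.27%). Between YAP-W1W2 and YAP-WT 2 passed (6.25%), against 9.50%, with 0 higher (all genes 3.91%) and 2 lower (5.59%). Between YAP-W1W2 and YAP-S94A 3 passed (9.38%), against 9.43%, with 2 higher (all genes 4.98%) and 1 lower (4.45%). The members that passed are named below with their values on every array.

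The glycolysis members differed little between the 4 cultures. Their median log2 difference from vector was 0.18 in YAP-W1W2, 0.34 in YAP-S94A and 0.07 in YAP-WT, which relative to the median gene is 0.08, 0.19 and -0.06. Between the highest and the lowest array, the median glycolysis member spanned 1.42-fold, against 1.73-fold for the median measured gene, and 17 of 21 members stayed under 2-fold (81.0%), against 64.4% of all measured genes. YAP-S94A held the highest intensity for 12 of the 21 members, against 30.5% of all measured genes, and vector held the lowest for 12, against 39.0%. Between YAP-S94A and YAP-WT the list median was 0.28, or 0.27 relative to the median gene. There 17 of 21 members read higher in YAP-S94A (15 after quantile normalization). As many, 17, lay above the median gene, which splits all measured genes evenly. Between YAP-W1W2 and YAP-WT the list median was 0.16, or 0.21 relative to the median gene. There 15 of 21 were higher in YAP-W1W2 (11 after quantile normalization), and 15 lay above the median gene. The list median of 0.16 turned to -0.12 when all measured probe sets of a gene were averaged.

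**Figure D1:**
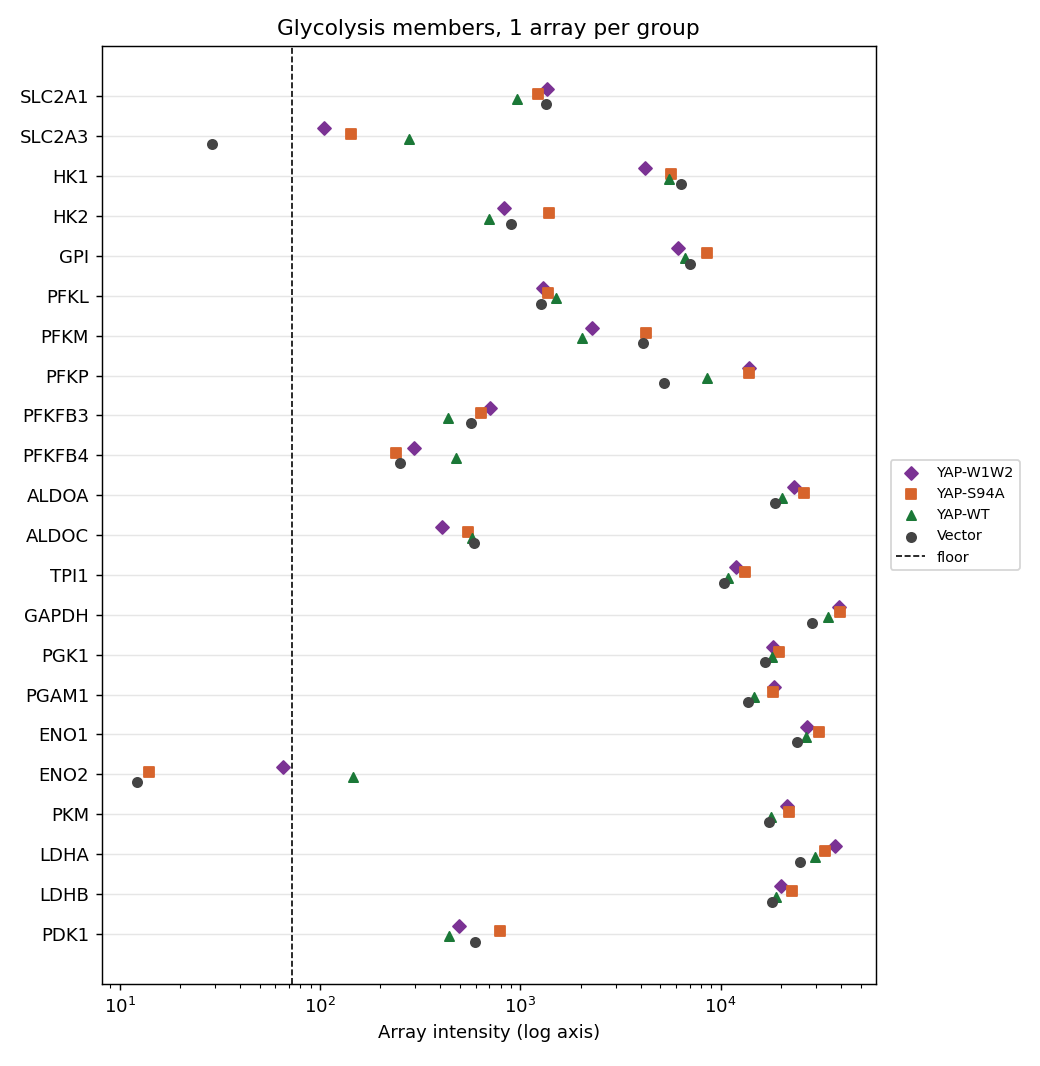
Array intensity (log axis) of the 22 glycolysis members with a probe set, in pathway order down the page; each symbol is 1 array and the dashed line is the floor of 72.9. The 4 arrays of each enzyme from ALDOA to LDHB lie close together, apart from ENO2, whereas SLC2A3, PFKP and ENO2 spread widely.

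Of the glucose transporters, the widely expressed SLC2A1 (GLUT1) read 1365.1 in YAP-W1W2, 1228.6 in YAP-S94A and 960.3 in YAP-WT, against 1346.6 in vector. YAP-WT was lowest for it, by 1.40-fold against vector. SLC2A3, which encodes the high-affinity transporter GLUT3, read 104.6, 142.5 and 279.2 in YAP-W1W2, YAP-S94A and YAP-WT, against 29.1 in vector. It was dim throughout, yet above the floor in all 3 YAP cultures and below it in vector, so that YAP-WT exceeded vector at least 3.83-fold. In YAP-W1W2 it was 2.67-fold lower than in YAP-WT. It counts as measured only through its level in YAP-WT, and another, unmeasured probe set read 143.1 in YAP-W1W2, 63.0 in YAP-S94A and 134.9 in YAP-WT, against 47.1 in vector, without that drop. The bound rests on the floor: with the floor at the 20th percentile of intensities, the log2 difference between YAP-WT and vector was 3.26 in place of 1.94.

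Hexokinases trap glucose in the cell. HK1, the constitutive isoform, read 4208.0 in YAP-W1W2, 5681.6 in YAP-S94A and 5533.8 in YAP-WT, against 6320.4 in vector, so that vector was highest and YAP-W1W2 lay below it by a log2 difference of -0.59. HK2, the inducible isoform, read 832.1, 1399.5 and 698.4 in the same cultures, against 902.7 in vector. It was highest in YAP-S94A, 2.00-fold above YAP-WT and 1.55-fold above vector. When its measured probe sets were averaged, the log2 difference between YAP-S94A and YAP-WT was 0.47 in place of 1.00. GPI, the isomerase of the next step, was also highest in YAP-S94A, at 8584.0, against 6671.4 in YAP-WT and 7021.1 in vector.

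The widest differences among the enzymes were at phosphofructokinase, the committed step, and the isoforms went different ways. PFKP, the platelet-type subunit, read 13856.9 in YAP-W1W2, 13948.0 in YAP-S94A and 8590.6 in YAP-WT, against 5212.3 in vector. All 3 YAP cultures exceeded vector, by 2.66-fold, 2.68-fold and 1.65-fold, and the mutants exceeded YAP-WT by 1.61-fold and 1.62-fold. A second and much dimmer PFKP probe set did not share this, with log2 differences from vector of -0.07 in YAP-W1W2, 0.01 in YAP-S94A and -0.29 in YAP-WT. With both averaged, PFKP was under 2-fold in either mutant, at log2 values of 0.67 in YAP-W1W2 and 0.72 in YAP-S94A.

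PFKM, the muscle-type subunit, read 2278.1 in YAP-W1W2, 4226.3 in YAP-S94A and 2024.9 in YAP-WT, against 4110.1 in vector. YAP-W1W2 and YAP-WT were low and YAP-S94A and vector were high. The gene was thus 2.03-fold lower in YAP-WT than in vector and 2.09-fold higher in YAP-S94A than in YAP-WT, on its only measured probe set. PFKL, the liver-type subunit, stayed within 1.19-fold over the arrays by its brightest probe set. A nearly as bright one was lowest in vector, at 876.6. Its log2 differences from vector were 0.58 in YAP-W1W2, 0.59 in YAP-S94A and 0.77 in YAP-WT. The bifunctional enzymes PFKFB3 and PFKFB4 set the level of fructose 2,6-bisphosphate, the activator of phosphofructokinase. PFKFB4 read 296.1, 238.9 and 475.8 in YAP-W1W2, YAP-S94A and YAP-WT, against 250.8 in vector, standing out in YAP-WT at 1.90-fold above vector. PFKFB3 was lowest in YAP-WT, at 436.5, against 565.8 in vector, and highest in YAP-W1W2, at 709.3.

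The 9 main enzymes from aldolase to lactate dehydrogenase are ALDOA, TPI1, GAPDH, PGK1, PGAM1, ENO1, PKM, LDHA and LDHB, a grouping made after their values were seen. By their brightest probe sets, all 9 were lowest in vector and differed by less than 2-fold. Dimmer measured probe sets of ALDOA, TPI1, ENO1 and PKM lay below vector in YAP-S94A, at log2 differences of -0.16, -0.21, -0.41 and -0.55. Of the 6 measured for PGK1, 2 did so too. All 6 of GAPDH and 2 of LDHB lay above vector there. LDHA, which reduces pyruvate to lactate, read 37065.1 in YAP-W1W2, 33252.0 in YAP-S94A and 29669.8 in YAP-WT, against 24917.6 in vector, and at 1.49-fold in YAP-W1W2 it had the largest span of the 9. PKM, which makes pyruvate, read 21396.2, 21960.1 and 17781.5 in these YAP cultures, against 17392.7 in vector. GAPDH, represented by an Affymetrix control probe set for that gene, read 39162.0, 39644.6 and 34302.6, against 28563.2 in vector. YAP-S94A was the highest array for 7 of the 9 and YAP-W1W2 for the remaining 2. Their median log2 difference from vector was 0.30 in YAP-W1W2, 0.38 in YAP-S94A and 0.12 in YAP-WT.

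Other bright genes leaned the same way, and 86.4% of them also stayed under 2-fold over the arrays. Over the 308 other genes with a mean intensity at least as high as the dimmest of the 9 (11584.1), the medians were 0.22, 0.24 and 0.15, 56.8% had their lowest array in vector and 36.7% their highest in YAP-S94A. Against YAP-WT, 206 of the 308 were higher in YAP-S94A and 190 in YAP-W1W2, as were 9 of the 9 enzymes in each mutant. The summed intensity of the 7 epithelial markers was also lowest in vector, at 142742.9 in YAP-W1W2, 131007.8 in YAP-S94A and 115228.4 in YAP-WT, against 90831.9 in vector, and its part in the result was not tested. KRT18 and LAMB3 carried most of that difference; KRT5 and ITGB4 were lowest in YAP-W1W2 and CDH1 in YAP-WT. The direction in YAP-WT depended on the scaling: 9 of 9 enzymes lay above vector as deposited, 2 of 9 after median centring and 6 of 9 after quantile normalization. In YAP-S94A 9 of 9 lay above vector under each of these scalings, and in YAP-W1W2 9, 9 and 6, all by the brightest probe sets. The minor isoforms behaved differently. ALDOC, the brain-type aldolase, was lowest in YAP-W1W2, at 409.1, against 588.3 in vector. ENO2, the neuronal enolase, read 65.3 in YAP-W1W2, 14.0 in YAP-S94A and 146.6 in YAP-WT, against 12.2 in vector. Only in YAP-WT did it pass the floor, at least 2.01-fold above vector, and its mean was too low to count as measured.

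PDK1, the kinase that closes the entry of pyruvate into mitochondria and a known HIF target, read 495.4 in YAP-W1W2, 788.2 in YAP-S94A and 442.3 in YAP-WT, against 593.2 in vector. YAP-S94A was highest, 1.78-fold above YAP-WT and 1.33-fold above vector. Its dimmer measured probe set put vector highest, with log2 differences from vector of -0.70 in YAP-S94A and -1.29 in YAP-WT. In YAP-W1W2 that probe set was below the floor, so its value of -2.17 is a bound. Both probe sets placed YAP-S94A above YAP-WT and above YAP-W1W2.

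**Figure D2:**
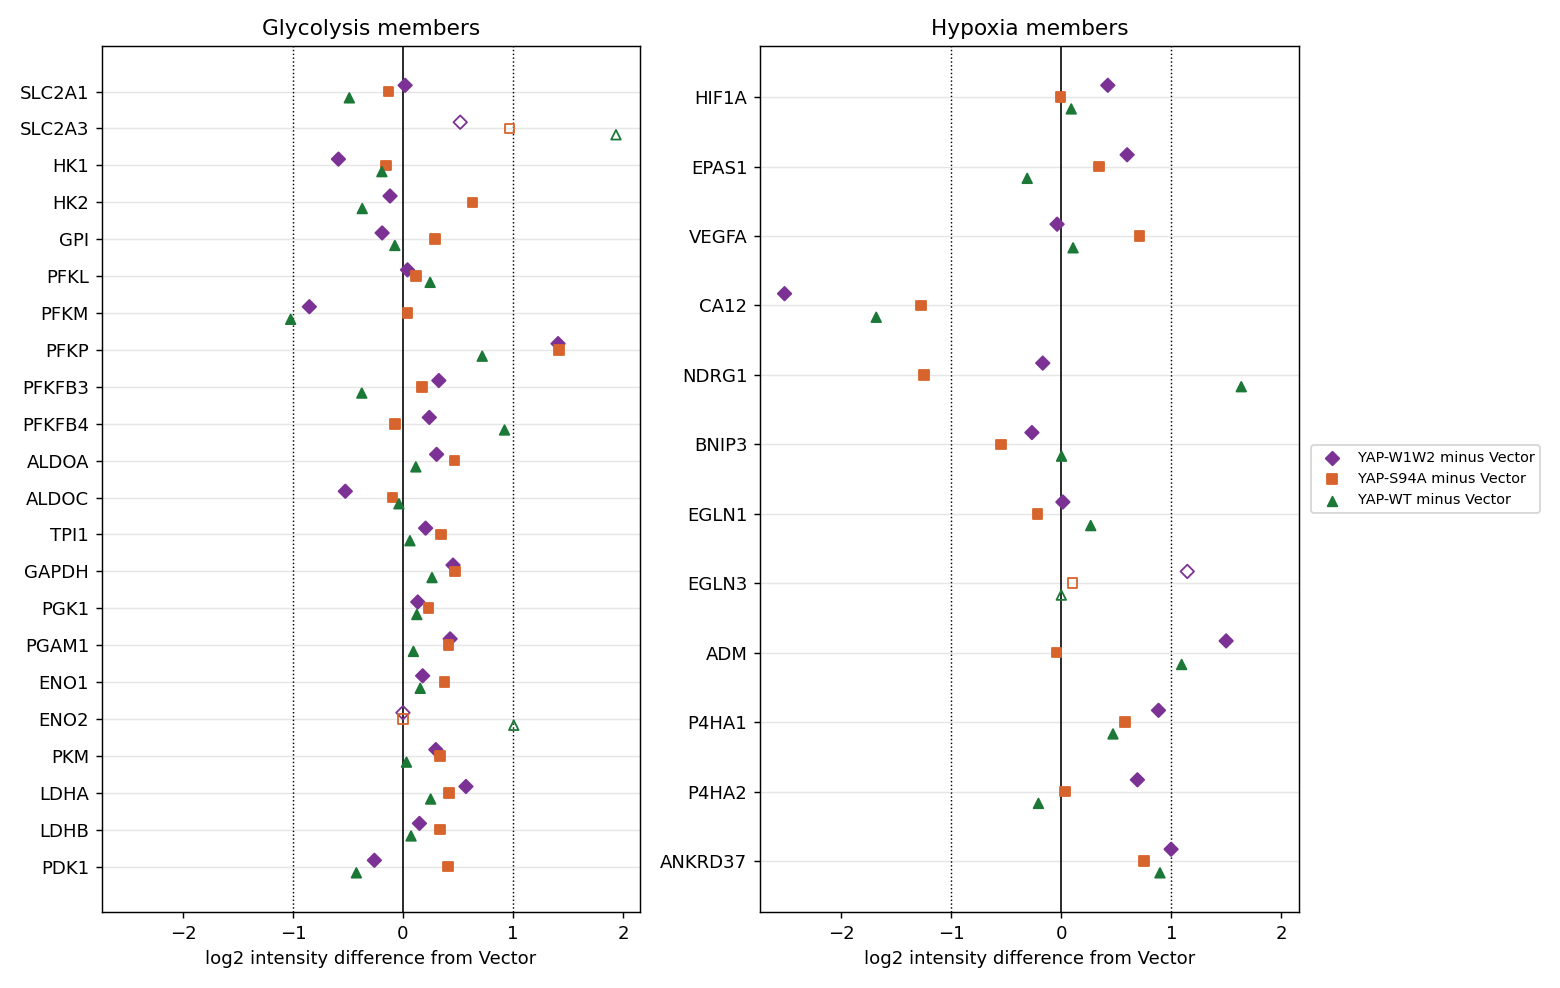
Difference of each YAP culture from vector in log2 intensity for the 34 members, glycolysis on the left and hypoxia on the right; open symbols have at least 1 array at the floor and dotted lines mark 2-fold. The enzymes from ALDOA to LDHB crowd just right of 0 except ALDOC and ENO2, while CA12 lies left of -1 in all 3 YAP cultures and NDRG1 splits between YAP-WT at 1.64 and YAP-S94A at -1.25.

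The hypoxia members did not move in common. Their median log2 difference from vector was 0.42 in YAP-W1W2, -0.01 in YAP-S94A and 0.11 in YAP-WT, which relative to the median gene is 0.32, -0.15 and -0.03. Counts past 2-fold were 1 higher and 1 lower of 11 in YAP-W1W2, 0 and 2 in YAP-S94A, and 2 and 1 in YAP-WT. Taken in either direction these are 18.2%, 18.2% and 27.3% of the list, against 19.8%, 16.8% and 14.0% of all measured genes. YAP-W1W2 was the highest array for 6 of the 11 members, against 22.4% of all measured genes, and YAP-S94A the lowest for 5, against 18.1%. Between YAP-W1W2 and YAP-S94A the list median was 0.28, or 0.36 relative to the median gene. In that comparison 9 of 11 members were higher in YAP-W1W2, also after median centring and after quantile normalization. As many, 9, lay above the median gene, which splits all measured genes evenly.

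HIF binds DNA at a short core, written ACGTG or GCGTG, and the promoters of the 3 hypoxia members ADM, CA12 and ANKRD37 are shown because their values follow 3 different patterns over the cultures; that of LDHA is shown as a classical HIF target that differed little here. Each is the 250 bases before a RefSeq start site (GRCh38.p14), 5′ to 3′ on the gene's strand, with capitals marking the core on either strand; overlapping matches on opposite strands were counted apart. ADM lies at chr11:10304823-10305072 (plus strand), CA12 at chr15:63381847-63382096 (minus), ANKRD37 at chr4:185396591-185396840 (plus) and LDHA, by 1 of its listed start sites, at chr11:18394313-18394562 (plus).
ADM: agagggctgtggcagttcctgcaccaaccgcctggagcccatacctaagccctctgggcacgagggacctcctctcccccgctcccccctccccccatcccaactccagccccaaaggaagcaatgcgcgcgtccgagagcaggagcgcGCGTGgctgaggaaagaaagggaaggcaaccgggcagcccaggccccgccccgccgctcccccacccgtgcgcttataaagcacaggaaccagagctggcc
CA12: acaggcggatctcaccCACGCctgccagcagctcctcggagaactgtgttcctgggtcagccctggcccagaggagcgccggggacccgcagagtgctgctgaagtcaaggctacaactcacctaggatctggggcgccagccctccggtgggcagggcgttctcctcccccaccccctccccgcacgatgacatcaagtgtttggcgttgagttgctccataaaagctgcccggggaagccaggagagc
ANKRD37: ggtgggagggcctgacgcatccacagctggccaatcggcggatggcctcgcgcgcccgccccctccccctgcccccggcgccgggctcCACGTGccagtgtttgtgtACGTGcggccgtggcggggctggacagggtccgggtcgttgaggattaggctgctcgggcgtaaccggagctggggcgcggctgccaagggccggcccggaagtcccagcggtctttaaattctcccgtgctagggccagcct
LDHA: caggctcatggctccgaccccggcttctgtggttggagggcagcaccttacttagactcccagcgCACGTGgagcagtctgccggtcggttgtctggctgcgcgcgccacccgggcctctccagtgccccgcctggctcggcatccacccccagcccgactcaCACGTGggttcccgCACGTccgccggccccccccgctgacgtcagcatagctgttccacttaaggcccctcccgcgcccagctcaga

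These windows hold 1 core in ADM, 1 in CA12, 3 in ANKRD37 and 5 in LDHA. Cores are common: 43.2% of the 35116 promoter windows of this length in the RefSeq table hold at least 1, as do 26 of 48 windows of glycolysis members (54.2%) and 9 of 12 windows of hypoxia members (75.0%). Windows were found for 22 glycolysis and 11 hypoxia members, and not for SLC2A3, SLC16A1, VEGFA and NDRG1. GGAATG, a core bound by TEAD factors, was in 11.9% of all windows on either strand, in 4 of 48 of glycolysis members and in 0 of 12 of hypoxia members. A match shows only that the letters are present.

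CA12, a membrane carbonic anhydrase that helps control pH and is induced by hypoxia and by oestrogen, was lower in every YAP culture. It read 504.3 in YAP-W1W2, 1192.0 in YAP-S94A and 898.9 in YAP-WT, against 2886.6 in vector. Vector stood well above the other 3 arrays, and the gene was 5.72-fold, 2.42-fold and 3.21-fold lower than vector in turn. All 6 of its measured probe sets lay below vector in each YAP culture, with log2 differences between -2.79 and -0.77 in YAP-W1W2, -1.41 and -0.47 in YAP-S94A, and -2.95 and -0.49 in YAP-WT. The value of -2.95 is a bound, since that probe set was below the floor in YAP-WT. All 6 also placed YAP-W1W2 below YAP-S94A, where the brightest differed by 2.36-fold.

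NDRG1, a stress-responsive gene linked to differentiation and strongly induced by hypoxia, had the widest span of the measured members. It read 3703.0 in YAP-W1W2, 1752.9 in YAP-S94A and 12942.6 in YAP-WT, against 4162.2 in vector. YAP-WT was far above the rest, YAP-S94A was the lowest, and YAP-W1W2 and vector lay close together. Against vector, YAP-WT was 3.11-fold higher and YAP-S94A 2.37-fold lower. Compared directly, it was 7.38-fold lower in YAP-S94A and 3.50-fold lower in YAP-W1W2 than in YAP-WT. These values come from 1 probe set.

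**Figure D3:**
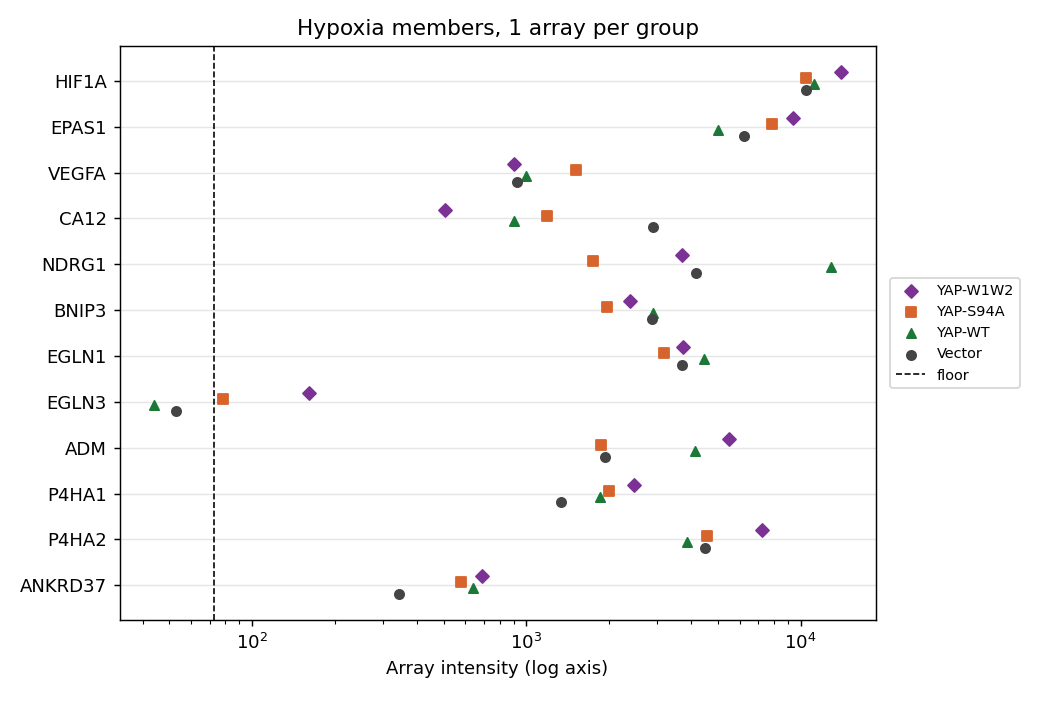
Array intensity (log axis) of the 12 hypoxia members with a probe set; each symbol is 1 array and the dashed line is the floor of 72.9. YAP-WT stands apart for NDRG1 (12942.6), vector for CA12 (2886.6) and ANKRD37 (344.2), and ADM divides into a high pair (YAP-W1W2 and YAP-WT) and a low pair (YAP-S94A and vector).

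ADM encodes adrenomedullin, a secreted vasodilator peptide induced by hypoxia. It read 5467.4 in YAP-W1W2, 1878.1 in YAP-S94A and 4129.8 in YAP-WT, against 1934.4 in vector. YAP-W1W2 and YAP-WT formed a high pair, 2.83-fold and 2.13-fold above vector, while YAP-S94A and vector differed by 1.03-fold. Between the YAP forms it was 2.20-fold lower in YAP-S94A than in YAP-WT and 2.91-fold higher in YAP-W1W2 than in YAP-S94A. The difference between YAP-WT and vector was just under 2-fold after median centring and after quantile normalization, at a log2 value of 0.93 in each case. The summed intensity of 5 fibroblast markers had the same order of pairs, at 1224.8 in YAP-W1W2, 766.2 in YAP-S94A and 1341.3 in YAP-WT, against 740.3 in vector, and its part in the result was not tested. COL1A1 carried that order, at 719.2, 409.9 and 1105.4, against 451.7 in vector; COL1A2 was higher in YAP-S94A than in YAP-WT, and PDGFRB and LUM were lowest in YAP-WT.

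VEGFA, the main growth factor for blood vessels, followed another order. It read 902.3 in YAP-W1W2, 1518.6 in YAP-S94A and 998.0 in YAP-WT, against 926.6 in vector, and YAP-S94A was highest by 1.64-fold over vector. All 4 measured VEGFA probe sets put YAP-S94A above vector, with log2 differences from 0.68 to 0.92, and above YAP-WT and YAP-W1W2 as well. ANKRD37, a small ankyrin-repeat gene induced by HIF, read 687.7, 580.5 and 641.1 in YAP-W1W2, YAP-S94A and YAP-WT, against 344.2 in vector. The 3 YAP cultures lay together, 2.00-fold, 1.69-fold and 1.86-fold above vector, and YAP-W1W2 missed the 2-fold count narrowly.

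The HIF alpha subunits were present on every array. HIF1A read 14067.0 in YAP-W1W2, 10443.8 in YAP-S94A and 11171.4 in YAP-WT, against 10493.4 in vector, so that YAP-W1W2 was highest by 1.34-fold over vector. EPAS1, which encodes HIF-2 alpha, read 9391.9, 7876.0 and 5002.9 in the same cultures, against 6202.0 in vector. Both mutants exceeded YAP-WT, by 1.88-fold in YAP-W1W2 and 1.57-fold in YAP-S94A. The second measured probe set also put both above YAP-WT, but with YAP-S94A the higher, at log2 differences of 0.58 in YAP-W1W2 and 1.25 in YAP-S94A. Neither gene passed 2-fold in any of the 6 comparisons by its brightest probe set.

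Of the oxygen-sensing hydroxylases, EGLN1 (PHD2) read 3728.6 in YAP-W1W2, 3180.9 in YAP-S94A and 4445.0 in YAP-WT, against 3692.4 in vector, and all 3 of its measured probe sets were highest in YAP-WT. EGLN3 (PHD3), itself a HIF target, read 161.3, 78.3 and 43.9, against 52.8 in vector. It was too dim to count as measured, and YAP-W1W2 was highest, at least 2.21-fold above vector. The other EGLN3 probe set was below the floor on every array. BNIP3, a mitophagy receptor, was lowest in YAP-S94A, at 1967.6, against 2886.3 in YAP-WT and 2881.7 in vector, and both of its probe sets placed YAP-S94A below YAP-WT.

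The prolyl 4-hydroxylase subunits P4HA1 and P4HA2 modify collagen and are HIF targets. P4HA1 read 2480.7 in YAP-W1W2, 2008.5 in YAP-S94A and 1861.9 in YAP-WT, against 1344.2 in vector, so that every YAP culture exceeded vector and YAP-W1W2 did so by 1.85-fold. P4HA2 read 7215.8, 4564.2 and 3866.7, against 4466.2 in vector; YAP-W1W2 alone stood apart, 1.87-fold above YAP-WT and 1.62-fold above vector. Both P4HA2 probe sets placed YAP-W1W2 above the other 3 arrays.

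**Figure D4:**
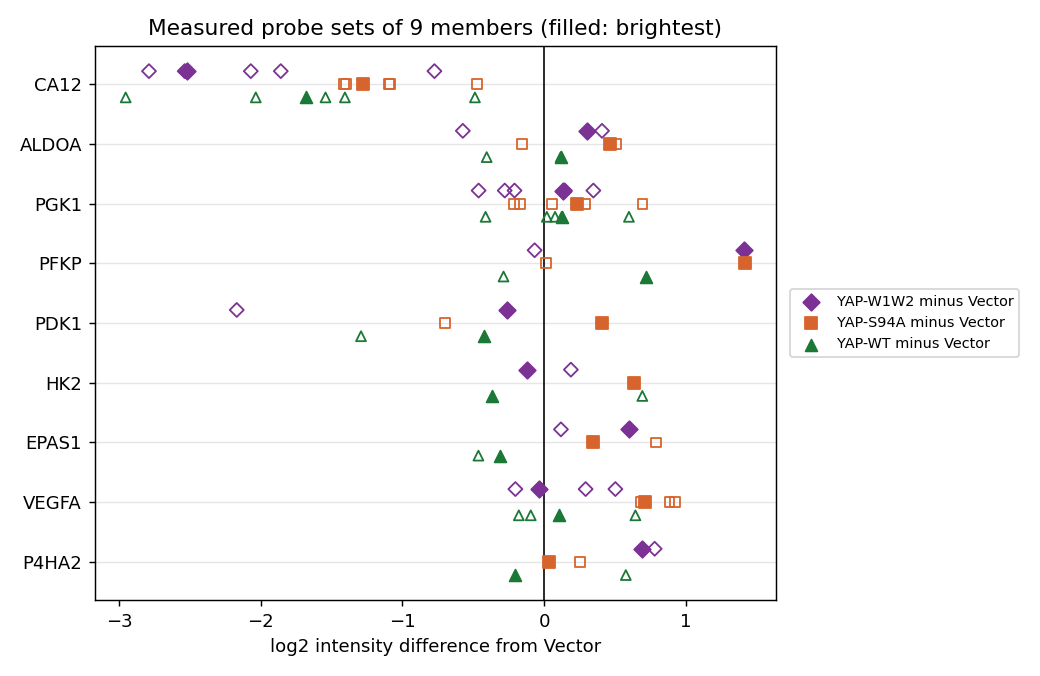
Difference from vector in log2 intensity for every measured probe set of 9 members with several; filled symbols are the brightest probe set, which the text uses, and open symbols the others. All 6 CA12 probe sets lie below 0 in all 3 YAP cultures and all 4 VEGFA probe sets lie above 0 in YAP-S94A. The probe sets of ALDOA and PGK1 disagree in sign in all 3 YAP cultures. Those of PFKP, PDK1, HK2 and P4HA2 disagree in some of them, as do those of VEGFA in YAP-WT and YAP-W1W2.

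How far the probe set matters can be counted. Of the 32 measured members, 15 had 1 measured probe set and 17 had several. Among the 17, probe sets went in opposite directions for 8 in YAP-W1W2 against vector, 7 in YAP-S94A against vector and 6 in YAP-WT against vector. They also did so for 6 in YAP-S94A against YAP-WT, 11 in YAP-W1W2 against YAP-WT and 5 in YAP-W1W2 against YAP-S94A. In ENO1, for example, the log2 difference between YAP-S94A and YAP-WT was 0.22 by the brightest probe set and -1.01 by the dimmest measured one. NDRG1, ADM and PFKM each rest on 1 measured probe set and have no such check.

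Neighbouring genes were read from lists of pathway membership. The pentose phosphate pathway draws on glucose 6-phosphate. Of its 6 measured genes, 0 differed 2-fold from vector in YAP-W1W2, 1 in YAP-S94A (16.7%) and 0 in YAP-WT. Of all measured genes, 19.8%, 16.8% and 14.0% did so in these cultures. The 1 pentose phosphate gene was RPIA, the ribose isomerase, at 425.2 in YAP-W1W2, 592.0 in YAP-S94A and 323.5 in YAP-WT, against 266.1 in vector. All 6 were lower in YAP-W1W2 than in YAP-S94A, by a median log2 value of -0.42 (-0.35 relative to the median gene). Among 6 measured side enzymes and isoforms of glycolysis, 1 passed 2-fold against vector, in YAP-WT (16.7%, all measured genes 14.0%). It was BPGM, which makes 2,3-bisphosphoglycerate. It read 929.7 in YAP-W1W2, 440.3 in YAP-S94A and 1005.1 in YAP-WT, against 483.2 in vector, the same pairing of cultures as ADM.

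Among genes of pyruvate use in mitochondria, a few differed widely from vector. Of 12 measured genes 3 were lower in YAP-W1W2, 2 in YAP-S94A and 1 in YAP-WT, and 0 were higher in any. That is 25.0%, 16.7% and 8.33% past 2-fold, against 19.8%, 16.8% and 14.0% of all measured genes. PDK4, a pyruvate dehydrogenase kinase raised by fasting and glucocorticoids, read 53.1 in YAP-W1W2, 68.6 in YAP-S94A and 256.7 in YAP-WT, against 1882.0 in vector. It was at the floor in both mutants, at least 25.8-fold lower than vector, and was 7.33-fold lower in YAP-WT. PDK2, another kinase of the family, read 95.9, 63.3 and 484.3, against 284.2 in vector, so that both mutants were low and YAP-WT was 1.70-fold above vector. PC, which carboxylates pyruvate to oxaloacetate, was below the floor in YAP-W1W2 only, at least 3.96-fold lower than the 288.9 of vector. The subunit genes PDHA1, PDHB, DLAT and DLD and the regulators PDK3 and PDP1, named after their values were seen, stayed under 2-fold in all comparisons with vector.

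**Figure D5:**
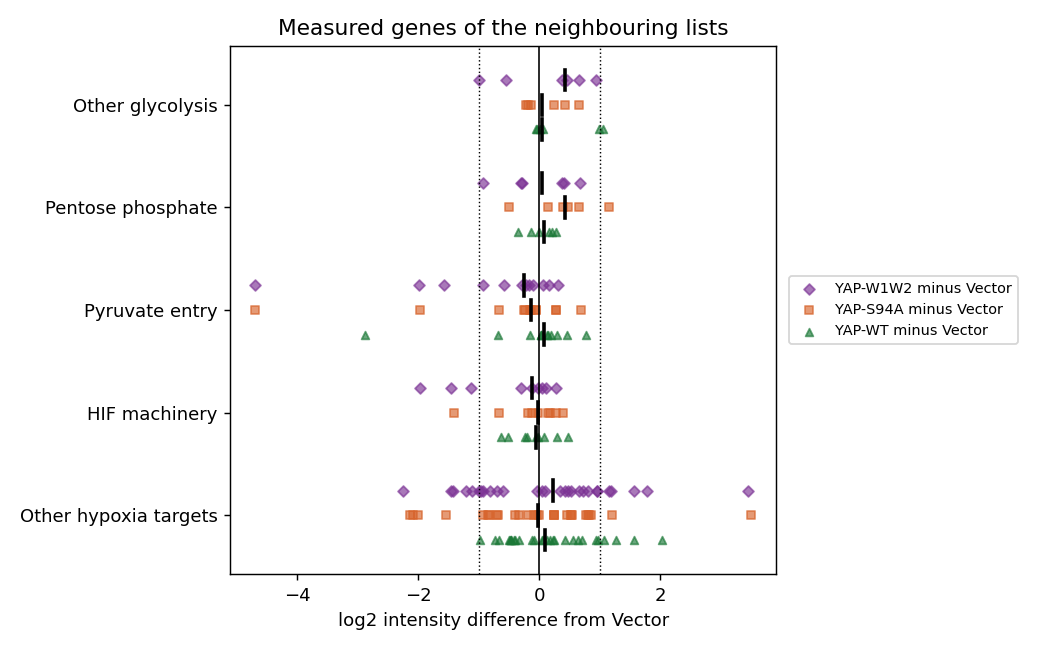
Difference from vector in log2 intensity for the measured genes of 5 neighbouring lists; each symbol is 1 gene in 1 YAP culture, black bars are list medians and dotted lines mark 2-fold. The medians lie within 2-fold of vector, and PDK4 is the isolated point near -4.69 in both mutants, where it is a bound.

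In the HIF machinery, 3 of 9 measured genes were lower than vector in YAP-W1W2, 1 in YAP-S94A and 0 in YAP-WT, and 0 were higher. Of all measured genes, 8.40%, 6.53% and 4.95% were lower in these cultures, and 11.4%, 10.3% and 9.10% were higher. EP300, a coactivator that HIF recruits, read 165.0 in YAP-W1W2, 242.4 in YAP-S94A and 448.1 in YAP-WT, against 642.4 in vector, and its relative CREBBP read 969.2, 1329.7 and 1362.2, against 2117.4 in vector. Vector was highest for both. VHL, which marks hydroxylated HIF for degradation, read 95.4, 241.9 and 253.8, against 263.2 in vector, low in YAP-W1W2 alone and close to the floor there.

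The 28 further hypoxia-inducible genes measured split in direction. In YAP-W1W2 5 were higher than vector and 5 lower, in YAP-S94A 2 and 4, and in YAP-WT 4 and 0. That is 35.7%, 21.4% and 14.3% past 2-fold, against 19.8%, 16.8% and 14.0% of all measured genes. ANGPTL4, a secreted inhibitor of lipoprotein lipase, read 1221.6, 4028.7 and 213.8 in YAP-W1W2, YAP-S94A and YAP-WT, against 354.6 in vector, with both mutants high. VLDLR, a lipoprotein receptor, read 793.0, 67.1 and 216.7, against 31.8 in vector, and was at least 10.9-fold higher in YAP-W1W2. VLDLR counts as measured only through its level in YAP-W1W2, and it was below the floor in YAP-S94A and vector. BNIP3L, the mitophagy receptor related to BNIP3, read 1246.5, 682.7 and 2060.1, against 2883.2 in vector, with YAP-S94A lowest as for BNIP3. ZNF395 read 606.4, 657.3 and 2191.4, against 2889.6 in vector, low in both mutants by 4.77-fold and 4.40-fold.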

How the data were processed

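Total RNA of 4 MCF10A cultures was labelled with biotin and hybridised to Affymetrix arrays, 1 per group, per the labels' protocols. The deposited values are intensities on a linear scale; GCOS is named in the submitters' processing notes, without a version, and how the authors scaled the arrays is not stated there. The platform's annotation gave 1 symbol to 41097 of 54675 probe sets, several to 1801 and none to 11777; all 34 members found kept their symbol in RefSeq (GRCh38.p14). Intensities were used as deposited, floored at 72.9 (the 40th percentile), and turned into log2. Genes with a mean intensity of at least 113.7 were called measured. Each comparison subtracts 1 array's log2 value from another's. There are no replicates, so nothing was tested, and the number of arrays limits the precision. The comparisons with vector share 1 array. The procedure was run on simulated data with little noise, where planted differences lay well past 2-fold and were shared by all probe sets of a gene. That setting cannot show how it does near 2-fold or where probe sets disagree.

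All members could be named. Of each neighbouring list, up to 4 measured genes with the largest difference of at least 2-fold from vector could be named. The pyruvate dehydrogenase subunit genes, GYS1, PGM1, GBE1, PYGL, LOX, PLOD1 and PLOD2, as well as PDK3 and PDP1, fall outside this rule and were named after their values were seen. Members and lists were chosen with earlier results of these data known. Alternatives were median centring, quantile normalization, a lower floor, averaged probe sets, probe sets without the _s_at or _x_at suffix, no filter on dim genes and, chosen after seeing the data, no Affymetrix control probe sets. Python 3.11.15, numpy 2.4.6 and pandas 2.3.3 were used.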

Additional observations from a re-analysis of the deposited data

How the results depend on the processing

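Of 84 recomputed list medians, 75 kept their sign and moved by less than a factor of 1.5, and of 84 recomputed counts past 2-fold, 72 stayed within 1.5 times. The other values follow, and their causes were not tested beyond what each setting removes. After median centring the median difference between YAP-WT and vector turned to -0.0901 for glycolysis and -0.0567 for hypoxia members, and 3 hypoxia members differed between YAP-W1W2 and YAP-WT in place of 1. Under quantile normalization these medians for YAP-WT were -0.0306 and -0.0235, and that of glycolysis members between YAP-W1W2 and vector was -0.0151. With the floor at the 20th percentile, 2 glycolysis members passed 2-fold in YAP-S94A and 2 in YAP-W1W2 against vector, in place of 1 each. With averaged probe sets the glycolysis counts were 0 for YAP-S94A against vector, 1 for YAP-S94A against YAP-WT and 1 for YAP-W1W2 against YAP-S94A, and the median between YAP-W1W2 and YAP-WT was -0.12. Leaving out the _s_at and _x_at probe sets kept 10 glycolysis and 8 hypoxia members; that median was then -0.0276, glycolysis counts were 0 for YAP-WT against vector and 0 for YAP-W1W2 against YAP-WT, and hypoxia counts were 1 for YAP-S94A against vector and 1 against YAP-WT. Without the filter on dim genes, which adds ENO2 and EGLN3, 2 glycolysis and 2 hypoxia members differed between YAP-W1W2 and YAP-WT, and the hypoxia medians of YAP-S94A were 0.0122 against vector and 0.003 against YAP-WT. Leaving out control probe sets, an alternative chosen after seeing the data, changed none of these medians' signs or counts. None of the 164 recomputed values of members past 2-fold reversed, but several settings could not have reversed them. Dropping the filter on dim genes or the control probe sets leaves these values as they are. Median centring shifts all genes of an array alike, by far less than 2-fold. Averaging changes nothing for members with 1 measured probe set. No paired analysis was possible because each group has 1 array. Dim members (SLC2A3, ENO2 and EGLN3) are limited by their signal over background.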

Other observations

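Glycogen genes in the neighbouring lists, named after their values were seen, also differed between cultures. GYS1, glycogen synthase, read 4365.2 in YAP-W1W2, 2848.4 in YAP-S94A and 4091.6 in YAP-WT, against 1952.9 in vector. PGM1, which links glycogen to glycolysis, read 10489.0, 5823.6 and 13088.9, against 6635.6 in vector. GBE1, the branching enzyme, read 2946.6, 4463.2 and 3940.4, against 5593.1 in vector. PYGL, a glycogen phosphorylase, read 4361.0, 3602.4 and 3908.2, against 2493.7 in vector. GYS1 and PYGL were thus lowest in vector and GBE1 highest there, while PGM1 paired YAP-W1W2 with YAP-WT.

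LOX and PLOD2 act on collagen and were picked after their values were seen, because they were high in the cultures where ADM was high. LOX, a lysyl oxidase, read 8022.9 in YAP-W1W2, 670.9 in YAP-S94A and 5315.2 in YAP-WT, against 2695.1 in vector. PLOD2, a lysyl hydroxylase, read 10190.3, 6067.8 and 11943.3, against 6198.8 in vector. YAP-S94A and vector were the low arrays for both genes, and for LOX YAP-S94A was well below vector. Other collagen-modifying genes varied. P4HA2 was lowest in YAP-WT by its brightest probe set. Its dimmer measured one read 857.0 in YAP-W1W2, 593.7 in YAP-S94A and 744.2 in YAP-WT, against 498.9 in vector. PLOD1 read 1500.0, 1321.8 and 1567.5 in YAP-W1W2, YAP-S94A and YAP-WT, against 955.8 in vector. YAP-S94A and vector were thus the low arrays of PLOD1 too, though YAP-S94A lay nearer to YAP-W1W2 than to vector.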
